A study of Mus musculus with 12 samples.

Results

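The repressor screen and the post-transcriptional gene regulator (PTGR) screen asked the same question of the mouse proteome at different steps of gene expression: which endogenous proteins lower a GFP reporter when they are brought to its DNA, and which do so when they are brought to its RNA. The comparison described here sets the sorted cells of both screens directly against each other. It comprises 4 of the 12 samples of the series, namely 2 repressor sorted and 2 PTGR sorted libraries of mapped insertion sites, and its members are all unique insertion positions within 200 kb of the exon to which they were assigned. There were 22266 and 15204 such insertions in repressor sorted replicates 1 and 2, and 60980 and 58560 in PTGR sorted replicates 1 and 2.

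All cells were wild-type mouse embryonic stem cells (mESC), and each screen used its own clonal reporter line. The repressor line carried a reporter, pEF1-BFP-7xTetO-pPGK-Puro-IRES-GFP, at an expression-stable locus on chromosome 15, so that a protein fused to TetR, the DNA-binding domain of a bacterial repressor, is recruited to DNA. The PTGR line carried a Puro-IRES-GFP-10xBoxB reporter, integrated randomly, whose transcript contains hairpins bound by the λN peptide, so that a λN-tagged protein is recruited to RNA. According to the study's methods, repressor cells were sorted for loss of GFP, whereas PTGR cells were sorted repeatedly for low GFP, with expansion between sorts, and finally for cells whose GFP returned once Cre had removed the boxB sites. Both screens also had 2 unsorted libraries, used below as background. The tag, the reporter, its locus and the sorting scheme all differ between the groups, so their effects cannot be told apart in this comparison, and because insertion sites in genomic DNA carry no expression, the stem cell label could not be checked against marker genes.

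In ORFtag, a retroviral cassette carrying a promoter, a tag and a splice donor integrates across the genome, and the tag is spliced onto the next exon downstream. A gene whose tagged protein acts on the reporter is therefore seen as a gene with more insertions among sorted cells. Silencing at DNA is known to run through sequence-specific factors, of which the KRAB zinc finger proteins are the largest mouse family, that recruit TRIM28 and with it histone H3K9 methylation and the heterochromatin proteins (HP1), and through corepressors such as CoREST, NCoR, NuRD and the Polycomb complexes. Silencing at RNA runs through the Argonaute and GW182 proteins of the microRNA pathway, the CCR4-NOT deadenylase, nonsense-mediated decay and factors that block the mRNA cap.

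The following splice acceptors are shown because they are where the tag was joined to 5 genes with more insertions in the repressor sorted libraries and 5 with more in the PTGR sorted libraries, of which the results below make use. Each is the acceptor of the exon that received the most insertions of that gene in the sorted libraries of the screen in which it was higher, read from the GRCm38 assembly on the strand of the gene, 5′ to 3′. The capitals mark the AG that ends the intron, and the bases after them are the first of the exon.
Ipo7: tctttgtttatttgttttAGgcacacaa
Zfp57: aatggaatttcctagcgcAGctgagacc
Sp3: cccccgcgctgtgcctgcAGctcccgaa
Cbx1: tatttcctttaattgtttAGcagtgtca
Trim28: tcccatttttatcttggcAGtggtggat
Cnot2: tttggataattccactctAGagggagaa
Trim71: cccgtctctctggtccacAGgtcctgca
Smg9: aacctccttgttccttccAGgtgaccat
Tnrc6b: catgtcatttctttttacAGagagaagg
Maco1: tgcctttctccctttcccAGgctggaac
The first 5 lie at chr7:110027051-110027078 on the plus strand, chr17:37002432-37002459 on the plus strand, chr2:72979625-72979652 on the minus strand, chr11:96800751-96800778 on the plus strand and chr7:13025284-13025311 on the plus strand. The last 5 lie at chr10:116549168-116549195 on the minus strand, chr9:114525114-114525141 on the minus strand, chr7:24403372-24403399 on the plus strand, chr15:80858661-80858688 on the plus strand and chr4:134812691-134812718 on the minus strand. The acceptor was that of exon 2 in 8 of these genes, of exon 5 in Tnrc6b and of exon 7 in Maco1. Exon 2 of Zfp57 took 1061 of 1084 repressor sorted insertions at that gene, exon 2 of Cnot2 took 121 of 154 PTGR sorted insertions, and exon 5 of Tnrc6b took 162 of 201.

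The libraries of one group were not fully separate. Repressor sorted replicates 1 and 2 had 4186 insertion positions in common, which were 18.8% of replicate 1 and 27.5% of replicate 2, whereas the PTGR sorted replicates shared 395 positions, 0.648% and 0.675% of each. At most 1.52% of a repressor sorted library lay at positions that also occurred in a PTGR sorted library. The comparison of sorted libraries across genes was therefore also made without the positions shared by replicates. The study describes its screens as done in biological replicates. Since replicate libraries of a group shared positions to this extent, p-values set the group difference against the spread between these libraries only. Shared positions can make that spread, and with it the p-values, too small. The deposited position tables also held repeats, at 12.7% of the positions of PTGR sorted replicate 2, at 100% of those of both repressor unsorted libraries and at no more than 0.0372% of those of the other sorted libraries, and each position was counted once. Sorted and unsorted libraries of a screen overlapped as well: 19.5% of PTGR sorted replicate 1 lay at positions of PTGR unsorted replicate 1, 6.98% of PTGR sorted replicate 2 at positions of PTGR unsorted replicate 2, and 5.47% to 10.02% of a repressor sorted library at positions of a repressor unsorted library.

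Insertions of the repressor sorted cells were concentrated on few genes, and those of the PTGR sorted cells were spread about as widely as before sorting. The 100 genes with the most insertions held 50.2% and 51.1% of all insertions in the repressor sorted libraries, 9.47% and 9.01% in the PTGR sorted libraries, and between 6.87% and 7.31% in the 4 unsorted libraries of the screens. Thinned to 14705 insertions, the repressor sorted libraries reached an expected 4274 and 4275 genes and the PTGR sorted libraries 6888 and 6444, against 6321 to 6500 in the unsorted libraries. The sorted groups did not overlap in either measure, and 2 against 2 libraries cannot go below p = 0.333 in a two-sided exact permutation test.

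**Figure D1:**
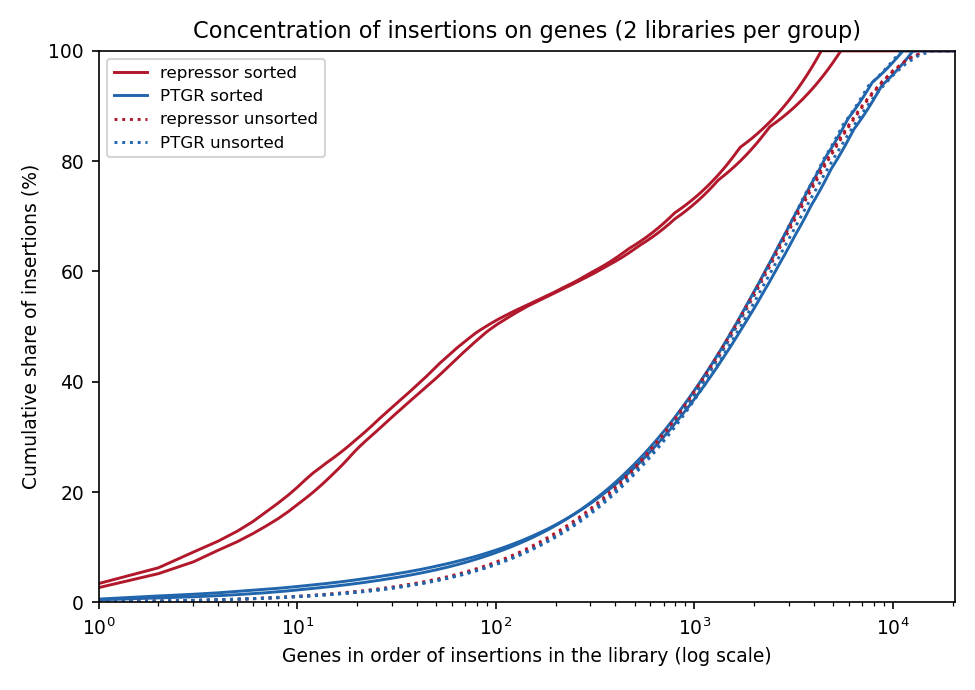
Cumulative share of insertions (percent) against genes ordered by their insertions in each library (log scale), with 2 lines per group for repressor sorted, PTGR sorted and the unsorted libraries. The repressor sorted lines pass 50% of insertions at 98 and 89 genes, whereas the PTGR sorted lines do so at 1762 and 1596 and run beside the unsorted lines.

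Across genes, the sorted groups were compared with a signed test, which can call a gene in a single direction only. Of 4175 genes with at least 10 insertions over the 4 libraries, 194 had more insertions in repressor sorted cells (4.65% of genes tested) and 60 had more in PTGR sorted cells (1.44%; edgeR quasi-likelihood test, adjusted p below 0.05). Fold changes are given on the log2 scale as repressor sorted over PTGR sorted, with a standard error (SE). They ran from 1.58 to 8.33 among the 194 genes and from -8.54 to -2.15 among the 60. The 2 libraries of one group did not overlap with those of the other in 190 of the 194 genes (7.98% of all genes tested lay that way round) and in 60 of the 60 (56.8% of all genes tested). The balance of the calls depended on scaling: the trimmed mean of M-values put the median of all tested genes at -0.63, and scaling to library size alone put it at -1.18 and gave 182 and 222 calls in place of 194 and 60, so that genes higher in repressor sorted cells were 45.05% of calls in place of 76.4%. With each of the 4 libraries left out in turn, 125 of the 194 and 14 of the 60 genes were called every time. Calls numbered 131 and 19 without repressor replicate 1, 175 and 22 without repressor replicate 2, 186 and 37 without PTGR replicate 1, and 183 and 46 without PTGR replicate 2. Without positions shared by replicates there were 173 and 36 calls, and with positions within 10 bp of each other merged there were 171 and 19.

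**Figure D2:**
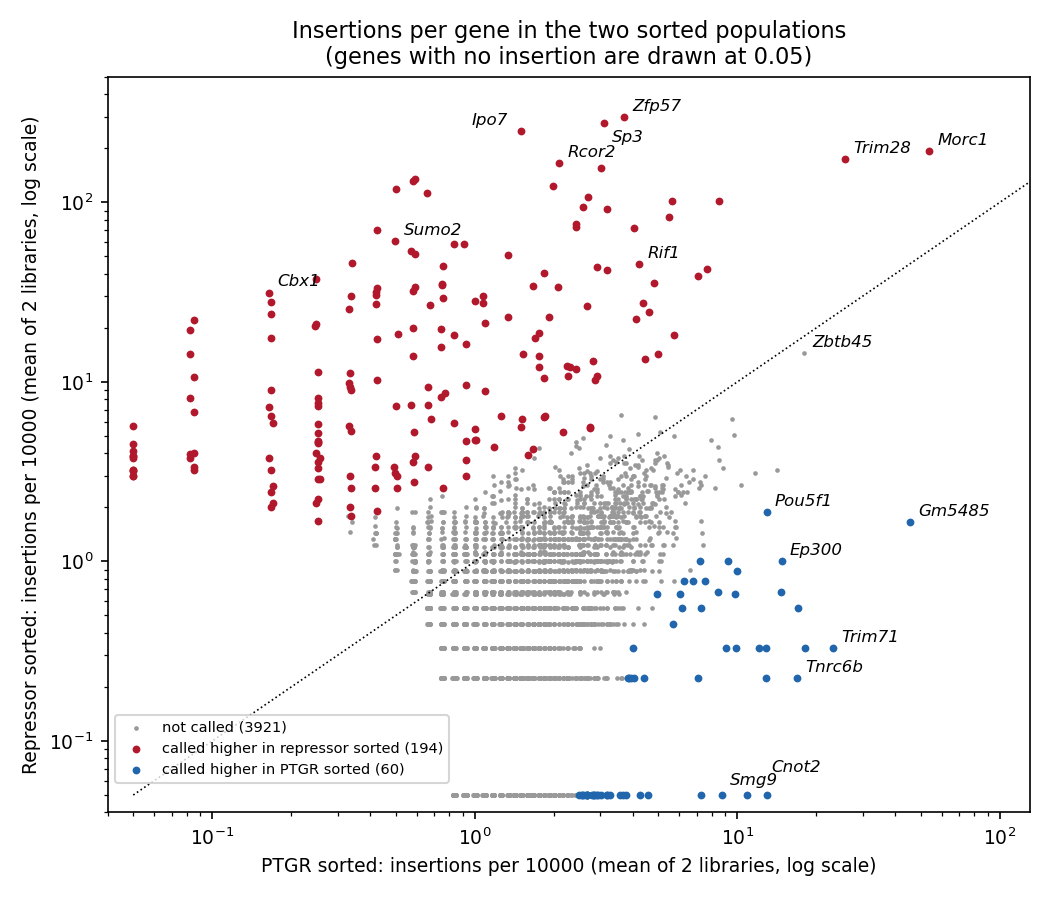
Insertions per 10000 at each tested gene, as the mean of 2 libraries, in PTGR sorted (horizontal) and repressor sorted cells (vertical), both on log scales, with the line of equality dotted. The 194 genes called higher in repressor sorted cells are red and the 60 called higher in PTGR sorted cells are blue. The direction of the call places them on opposite sides of the line. Morc1 and Trim28 are the red points farthest to the right.

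The called genes were also set against the unsorted cells. Of the 194 genes, 186 had more insertions per 10000 in both repressor sorted libraries than in any of the 4 unsorted libraries, a property of 6.54% of tested genes. Of the 60 genes, 41 had more in both PTGR sorted libraries than in any unsorted library (9.27% of tested genes), and 53 had fewer in both repressor sorted libraries than in any unsorted library, as did 2242 of the 4175 tested genes. The 194 genes held 55.1% and 54.7% of insertions in the repressor sorted libraries, 3.16% and 2.99% in the PTGR sorted libraries and 2.53% to 4.07% in the unsorted ones. The 60 genes held 4.71% and 4.43% of the PTGR sorted insertions, 0.189% and 0.197% of the repressor sorted ones and 1.28% to 1.65% of the unsorted ones.

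The genes with the smallest p among the repressor calls were Ipo7, Zfp872, Zfp825, Gm35315, Zfp870, Sp3, Zfp57, Olfr130, Rcor2 and Sumo2. Zfp57, a KRAB zinc finger protein that maintains imprinted methylation, had 253 and 342 insertions per 10000 in the repressor sorted libraries and 3.12 and 4.27 in the PTGR sorted libraries. The repressor values were far above all others at this locus, since the repressor unsorted libraries had 12.6 and 11.3 and the PTGR unsorted libraries 5.52 and 5.73. Its log2 fold change was 6.87 (SE 0.55, adjusted p = 2.33e-32). Sp3, a factor that binds GC boxes, had 269 and 286 per 10000 against 2.95 and 3.24, with a log2 fold change of 7.03 (SE 0.56, adjusted p = 3.94e-33). Ipo7, which encodes the nuclear import receptor importin 7, had 214 and 285 per 10000 against 1.64 and 1.37, with a log2 fold change of 7.88 (SE 0.59, adjusted p = 2.34e-36). The unsorted libraries had 2.77 to 7.63 at Sp3 and 2.05 to 6.71 at Ipo7, so at both genes the repressor sorted libraries were far above all others and, at Ipo7, the PTGR sorted libraries were below all others. Rcor2, which encodes a CoREST subunit, had 156 and 176 per 10000 against 2.13 and 2.05 (log2 fold change 6.84, SE 0.56). Sumo2, a small modifier protein attached to many chromatin factors, had 57.5 and 63.8 against 0.656 and 0.342 (log2 fold change 7.38, SE 0.62). None of these genes was near the PTGR sorted level in either repressor library.

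Zinc finger genes made up a large share of the repressor calls. Of 364 genes named Zfp with a number, 111 were tested, 51 of these were higher in repressor sorted cells and none in PTGR sorted cells by the edgeR test. Over all tested genes, 4.65% were higher in repressor and 1.44% in PTGR sorted cells. The calls of this and every list below are to be set beside these shares. The median log2 fold change of the 111 genes was 1.59, against -0.63 for all tested genes. Together the 364 genes held 12.8% and 14.5% of repressor sorted insertions and 1.83% and 1.97% of PTGR sorted insertions, against 1.9% to 2.3% in the unsorted libraries. The Zfp genes Zfp872, Zfp825 and Zfp870 had log2 fold changes of 8.33 (SE 0.63), 8.26 (SE 0.63) and 7.87 (SE 0.62). Each of these had at least 106 insertions per 10000 in both repressor sorted libraries and at most 1.15 in either PTGR sorted library. Of 18 tested BTB and SCAN zinc finger genes, 2 were higher in repressor sorted cells and none in PTGR sorted cells by the edgeR test, namely Zbtb3 (3.99, SE 1.08) and Zbtb38 (8.53 and 2.63 per 10000 against 3.12 and 2.39; 1.70, SE 0.51), whose call was lost without repressor replicate 1 (0.42, adjusted p = 0.891) and without PTGR replicate 2 (adjusted p = 0.0953), and also under library size scaling (adjusted p = 0.122). The list median was -0.75. Many Zfp genes lie in clusters of similar genes, and how reads that fit several copies were treated beyond the mapping quality filter was not tested.

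Most tested genes for the partners that KRAB zinc finger proteins recruit were higher in repressor sorted cells. Of 24 genes for the KRAB corepressor and H3K9 heterochromatin, 17 were tested, 12 were called higher in repressor sorted cells and none in PTGR sorted cells, and the median log2 fold change was 5.03. Atf7ip, the partner of the H3K9 methyltransferase SETDB1, had 128 and 182 insertions per 10000 against 2.62 and 3.42 (log2 fold change 6.20, SE 0.54). Cbx1 and Cbx3, which encode HP1 beta and gamma, followed at lower insertion numbers. Cbx1 had 23.4 and 39.5 per 10000 against 0.328 and 0 (log2 fold change 7.80, SE 0.69), and Cbx3 had 15.3 and 32.2 against 0.164 and 0.171 (7.38, SE 0.69). Ehmt2, the H3K9 methyltransferase G9a, had 18.4 and 23.7 against 0.328 and 0.171 (6.75, SE 0.65). In all 4 genes the lowest repressor sorted value was above the highest value of every other library shown. The 12 called members ranged from 3.01 to 7.80, and the 5 tested members that were not called ranged from -0.28 to 2.71.

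Other corepressors were called in part. In the CoREST and LSD1 list, 4 of 7 tested genes were higher in repressor sorted cells and none in PTGR sorted cells. Besides Rcor2 these were the H3K4 demethylase gene Kdm1a (8.98 and 5.92 per 10000 against 1.15 and 0; log2 fold change 4.21, SE 0.60), the corepressor genes Gse1 (33.2 and 11.8 against 3.28 and 4.95; 3.11, SE 0.47) and Phf21a (11.2 and 9.87 against 2.13 and 1.54; 3.08, SE 0.50). Repressor sorted libraries lay above PTGR sorted libraries at each, as at 7.98% of all tested genes, with a wide gap between the repressor libraries at Gse1. Of 24 tested genes for Sin3, NuRD, NCoR, CtBP and Groucho corepressors, 4 were called, all higher in repressor sorted cells: the NuRD remodelers Chd3 (15.7 and 19.1 against 0.164 and 0.683; 5.82, SE 0.60) and Chd4 (17.5 and 13.8 against 1.15 and 0.342; 4.91, SE 0.56), the corepressor gene Ncor1 (4.16, SE 0.48) and the Sin3 subunit gene Arid4b (4.94 and 2.63 against 0 and 0.512; 4.39, SE 0.84). The other 20 members ranged from -5.22 to 2.18, and the list median of 0.39 became -0.17 under library size scaling. Ncor1 had 115 and 89.5 insertions per 10000 against 9.02 and 8.03, while its unsorted libraries had 7.03 to 11.4. The repressor sorted libraries therefore held many insertions at a gene at which PTGR sorted cells did not depart from the unsorted range.

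Polycomb genes were divided. Of 19 tested, 8 were higher in repressor sorted cells and 1, Bcorl1, was higher in PTGR sorted cells. The 4 with the smallest p belong to the PRC1 complexes: Kdm2b (83.5 and 61.2 per 10000 against 3.44 and 4.61; log2 fold change 4.75, SE 0.50), Cbx7 (31.4 and 23.7 against 1.64 and 0.512; 5.21, SE 0.55), Pcgf6 (20.7 and 15.8 against 1.15 and 0.512; 4.98, SE 0.55) and Phc1 (27.4 and 40.1 against 2.46 and 1.71; 4.52, SE 0.51). In each of these genes both repressor sorted libraries lay above both PTGR sorted libraries, as at 7.98% of all tested genes. The list median was 0.08, and -0.47 under library size scaling, so no direction is given for the list. Bcorl1 was named after its value was seen, as the only Polycomb gene called in the other direction (-6.25, a fitted value with no insertion in repressor sorted cells). It had 12 and 19 insertions in PTGR sorted cells (edgeR adjusted p = 0.0384). Its call was not kept with each library left out in turn, and its PTGR sorted libraries were not both above all unsorted libraries.

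Among 6 tested genes for DNA methylation and methyl-CpG binding the calls went both ways, with Tet2 and Zbtb38 higher in repressor sorted cells, Tet1 higher in PTGR sorted cells and a list median of -0.32. Tet2 and Tet1 encode enzymes that oxidize methylcytosine. Tet2 had 20.2 and 16.4 insertions per 10000 in repressor sorted cells and 6.4 and 5.12 in PTGR sorted cells (log2 fold change 2.25, SE 0.46, edgeR adjusted p = 2.67e-05). Tet1 had 1.35 and 0.658 in repressor sorted cells and 12.1 and 6.32 in PTGR sorted cells (-2.53, SE 0.69, edgeR adjusted p = 0.00517). Thus both libraries of one group lay above both of the other at each gene, in opposite directions. Of all tested genes, 7.98% lay the way of Tet2 and 56.8% the way of Tet1. The call for Tet1 was lost when either repressor replicate or PTGR replicate 1 was left out (adjusted p = 0.0843, 0.260 and 0.287, respectively).

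Sequence-specific factors of other families were also divided. Of 14 tested Sp and Kruppel-like factor genes, 5 were higher in repressor sorted cells and none in PTGR sorted cells. Besides Sp3 and Klf3, the latter named after its value was seen, these were Sp1 (104 and 142 per 10000 against 2.95 and 1.02; log2 fold change 6.45, SE 0.55), Sp2 (26.9 and 27.6 against 0.328 and 0.512; 6.48, SE 0.62) and Klf8 (110 and 73.7 against 2.79 and 3.59; 5.44, SE 0.52). The other 9 ranged from -1.37 to 1.96, and the list median was 0.39, or -0.18 under library size scaling. Of 14 tested pluripotency factor genes, 2 were called in each direction. Esrrb (36.4 and 32.9 against 0.984 and 0.512; 6.04, SE 0.58) and Tfcp2l1 (11.2 and 6.58 against 0.656 and 1.54; 3.63, SE 0.54) were higher in repressor sorted cells. Pou5f1, the gene of OCT4, was higher in PTGR sorted cells (1.80 and 1.97 against 14.9 and 10.9; -2.21, SE 0.61, edgeR adjusted p = 0.00535). The call for Pou5f1 was lost without repressor replicate 1, without repressor replicate 2 and without PTGR replicate 1 (adjusted p = 0.196, 0.153 and 0.178, respectively).

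**Figure D3:**
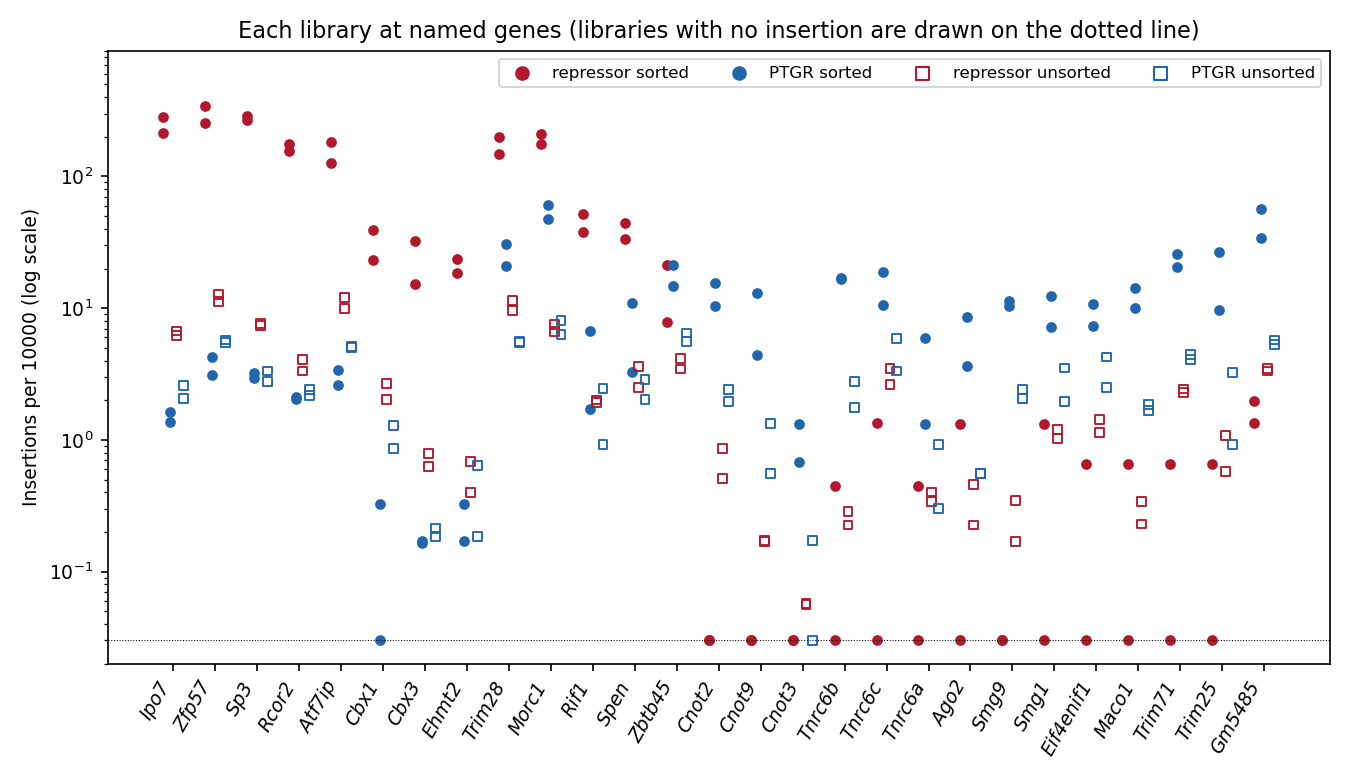
Insertions per 10000 (log scale) at 27 named genes, with 1 point per library: filled circles are sorted and open squares unsorted libraries, red for the repressor and blue for the PTGR screen. Repressor sorted values lie above PTGR sorted values from Ipo7 to Spen, overlap with them at Zbtb45, and lie below them from Cnot2 to Gm5485, where many are at 0.

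In the opposite direction, the genes with the smallest p among those higher in PTGR sorted cells were Gm5485, Trim71, Trim25, Cnot2, Tnrc6b, Smg9, Parp14, Trim13, Mib2 and Maco1. All 10 were called with each library left out in turn. Gm5485, a predicted gene, had 56.9 and 33.8 insertions per 10000 in PTGR sorted cells and 1.35 and 1.97 in repressor sorted cells (log2 fold change -4.24, SE 0.61, adjusted p = 1.98e-10). Trim71, an RNA-binding repressor of mRNAs in stem cells, had 25.6 and 20.7 in PTGR sorted cells and 0 and 0.658 in repressor sorted cells (-5.74, SE 0.86, adjusted p = 1.11e-09). The unsorted libraries lay in between, at 3.33 to 5.73 for Gm5485 and 2.3 to 4.45 for Trim71. At both genes the repressor sorted libraries were thus below and the PTGR sorted libraries above the unsorted range. Repressor sorted libraries were below all unsorted libraries at 2242 of the 4175 tested genes. Trim25, an RNA-binding ubiquitin ligase, had 26.6 and 9.73 in PTGR sorted cells against 0 and 0.658 (-5.41, SE 0.87), and Trim13, a ubiquitin ligase of the endoplasmic reticulum, had 17.1 and 8.71 against 0.449 and 0 (-4.92, SE 0.90). Both were higher in PTGR replicate 1 than in replicate 2. Maco1, which encodes an endoplasmic reticulum membrane protein, had 14.1 and 10.1 against 0 and 0.658 (-4.81, SE 0.90), and Mib2, a ubiquitin ligase, had 11.8 and 13.8 against 0 and 0.658 (-4.89, SE 0.90).

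Genes of the microRNA effector complex were higher in PTGR sorted cells. In the list of Argonaute, GW182 and Dicer, 4 of 5 tested genes were called higher in PTGR sorted cells and none in repressor sorted cells, and the median log2 fold change was -3.58, or -3.06 with the gene at 0 in repressor sorted cells set to a bound. That bound takes 3 insertions over the group as the floor, equal to 0.801 per 10000 in repressor sorted cells. Fold bounds given for single genes use library totals alone. Scaling by the trimmed mean of M-values would lower those in the PTGR direction. List medians use the floor after that scaling. With the same bound the median was -0.26 over all tested genes and -0.64 for the ribosomal protein genes listed as a reference. Tnrc6b, a GW182 protein that links Argonaute to deadenylation, had 16.7 and 16.9 insertions per 10000 in PTGR sorted cells and 0.449 and 0 in repressor sorted cells (-5.29, SE 0.88, edgeR adjusted p = 6.36e-08). Its paralog Tnrc6c had 10.5 and 19.0 against 1.35 and 0 (-3.58, SE 0.72, edgeR adjusted p = 1.57e-05). The third paralog, Tnrc6a, did not pass the test (1.31 and 5.98 against 0.449 and 0; -3.06, SE 1.08, edgeR adjusted p = 0.0696), although it did under library size scaling (adjusted p = 0.00511) and without PTGR replicate 1 (adjusted p = 0.0158). PTGR sorted values thus exceeded repressor sorted values in all 3 paralogs, as they did at 56.8% of all tested genes. Those of Tnrc6a differed most between the PTGR replicates. Ago2, the Argonaute that cleaves its target, had 3.61 and 8.54 against 0 and 1.32 (-2.86, SE 0.84, edgeR adjusted p = 0.0131), and Ago1 had 1.31 and 4.27 against no insertion, at least 3.45-fold higher. The call for Ago2 was lost without repressor replicate 1 (adjusted p = 0.442) and without PTGR replicate 2 (adjusted p = 0.246), and that for Ago1 without either repressor replicate (adjusted p = 0.363 and 0.241).

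The CCR4-NOT complex, which removes poly(A) tails, was represented by 2 called genes. Cnot2, a scaffold subunit, had 63 and 91 insertions in the PTGR sorted libraries, or 10.3 and 15.5 per 10000, and none in repressor sorted cells, which made it at least 16.1-fold higher in PTGR sorted cells (edgeR adjusted p = 5.26e-08). Cnot9, a docking subunit, had 13.1 and 4.44 per 10000 and again none in repressor sorted cells, at least 11.1-fold higher (edgeR adjusted p = 2.85e-06). Neither was without insertions in the repressor unsorted libraries, where Cnot2 had 0.861 and 0.509 and Cnot9 0.172 and 0.170. Cnot3 had 8 and 4 insertions in PTGR sorted cells and none in repressor sorted cells. That was at least 1.25-fold higher on library totals alone, a bound that scaling by the trimmed mean of M-values lowers. Cnot3 did not pass the test (edgeR adjusted p = 0.318). Of 17 genes of the complex 10 were tested, and the 8 that were not called ranged from -5.82 to -0.20. The list median of -3.57 became -0.75 with the 5 genes at 0 in repressor sorted cells set to the bound, near the -0.64 of ribosomal protein genes.

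Nonsense-mediated decay genes gave 4 calls among 7 tested, all higher in PTGR sorted cells. Smg9, a partner of the decay kinase SMG1, had 11.3 and 10.4 insertions per 10000 and none in repressor sorted cells, at least 13.6-fold higher (edgeR adjusted p = 3.40e-07). Smg1 itself had 7.22 and 12.5 against 0 and 1.32 (-3.55, SE 0.80, edgeR adjusted p = 0.000215). Smg5 had 3.61 and 3.93 against none, at least 4.70-fold higher (edgeR adjusted p = 0.00446), and Upf2 had 4.10 and 3.59 against 0.449 and 0 (-3.17, SE 1.06, edgeR adjusted p = 0.0477). PTGR sorted libraries were above repressor sorted libraries at all 4 genes, as at 56.8% of all tested genes. The call for Smg9 alone held with each library left out. Smg1 was not called without repressor replicate 1 (adjusted p = 0.230), Smg5 not without either repressor replicate (0.201 and 0.0918), and Upf2 not without either repressor replicate or PTGR replicate 1 (0.192, 0.464 and 0.178). With the 4 genes at 0 set to the bound, the median of the list moved from -4.91 to -1.66.

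Of 10 tested genes for cap binding, decapping and P-bodies, 2 were higher in PTGR sorted cells, and both act at the mRNA cap. Eif4enif1, the transporter that binds the cap-binding protein and holds mRNAs in a repressed state, had 7.38 and 10.8 insertions per 10000 against 0 and 0.658 (-4.38, SE 0.93, edgeR adjusted p = 6.28e-05). Eif4e2, a cap-binding protein that blocks translation, had 7.71 and 9.22 against 1.35 and 0 (-2.79, SE 0.74, edgeR adjusted p = 0.00353). Both PTGR sorted libraries were above both repressor sorted libraries at each gene, as at 56.8% of all tested genes. The call for Eif4enif1 was lost without repressor replicate 1 (adjusted p = 0.0970) and that for Eif4e2 without repressor replicate 2 (adjusted p = 0.354). Sequence-specific RNA-binding regulators gave 2 calls among 19 tested genes, 1 in each direction (5.26%, against 4.65% and 1.44% of all tested genes). Trim71 was higher in PTGR sorted cells, and N4bp1, an RNA endonuclease, was higher in repressor sorted cells (29.6 and 23.0 against 2.95 and 2.39, log2 fold change 3.87, SE 0.50). None of 4 tested m6A writer and reader genes was called by the edgeR test, too few genes to set against the shares over all tested genes.

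Put together, the 5 chromatin lists had 73 tested genes, of which 30 were higher in repressor sorted (41.1%) and 2 in PTGR sorted cells (2.74%). The 6 RNA lists had 55 tested genes, of which 1 was higher in repressor sorted (1.82%) and 13 in PTGR sorted cells (23.6%). Over all tested genes the shares were 4.65% and 1.44%. Members of the chromatin lists held 11% and 11.5% of repressor sorted insertions, 1.9% and 1.67% of PTGR sorted insertions and 1.49% to 1.86% of unsorted insertions. Members of the RNA lists held 0.714% and 0.526% of repressor sorted insertions, 2.3% and 2.55% of PTGR sorted insertions and 1.08% to 1.18% of unsorted insertions. For the first group the PTGR sorted libraries stood at or just above the unsorted libraries and the repressor sorted libraries far above them. For the second the PTGR sorted libraries were above and the repressor sorted libraries below the unsorted ones. The lower repressor share was not particular to the RNA lists. The ribosomal protein genes listed as a reference held 0.238% and 0.171% of repressor sorted insertions, against 0.45% to 0.507% of unsorted insertions. Both repressor sorted libraries were below all unsorted libraries at 2242 of the 4175 tested genes. Of 19 tested ribosomal protein genes, taken as a reference, none was called by the edgeR test, and their median was -1.03. None of 3 tested vomeronasal Vmn2r receptor genes was called either. With calls this rare over all tested genes, lists of 19 and 3 genes can hold none without differing from the rest.

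**Figure D4:**
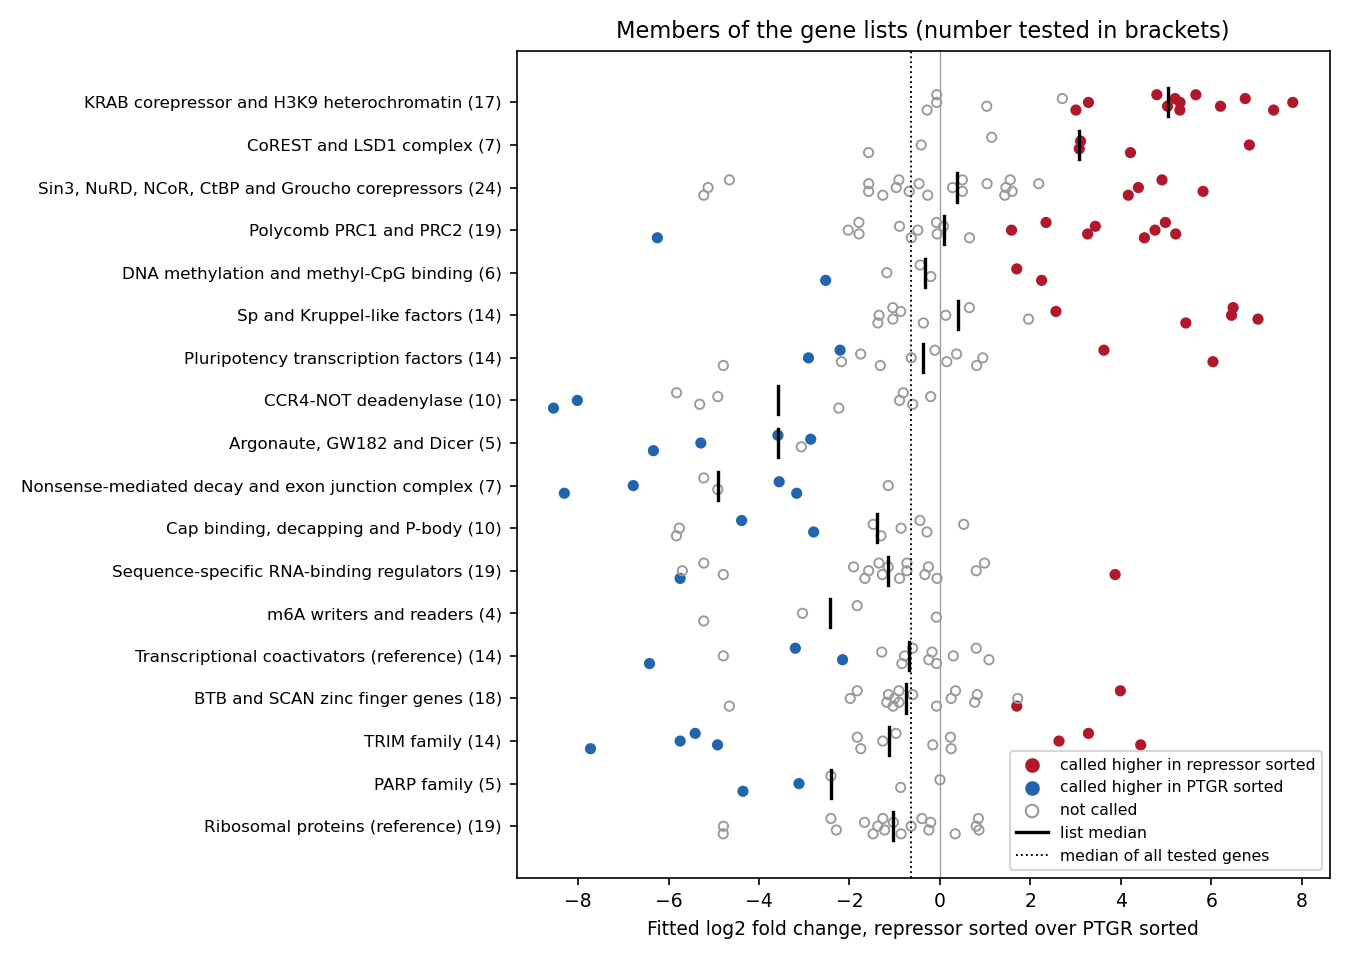
Fitted log2 fold change, repressor sorted over PTGR sorted, of each tested member of 18 gene lists, with members called higher in repressor sorted cells in red, those called higher in PTGR sorted cells in blue and others open. Black bars are list medians and the dotted line is the median of all tested genes, -0.63. Fitted values of genes with no insertion in repressor sorted cells lie far to the left and depend on the prior count.

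Families with members on both sides were found as well. Of 14 tested TRIM genes, 3 were higher in repressor sorted and 4 in PTGR sorted cells. Trim24, a chromatin reader related to Trim28, had 42.2 and 44.7 insertions per 10000 against 2.95 and 2.90 (4.44, SE 0.50), and Trim8 had 7.19 and 5.26 against 1.31 and 1.71 (2.63, SE 0.55, edgeR adjusted p = 3.57e-05), with its call lost without repressor replicate 1 (adjusted p = 0.0829). On the PTGR side were Trim71, Trim25, Trim13 and Trim26, the last of these named after its value was seen. Trim24 and Trim8 thus lay on the side opposite to that of the 3 named RNA-side TRIM genes. Of 5 tested PARP genes 2 were higher in PTGR sorted cells, namely Parp14 (15.7 and 18.3 against 0.449 and 0.658; -4.35, SE 0.77) and Zc3hav1, the antiviral protein ZAP that binds CpG-rich RNA (4.92 and 9.56 against 0.449 and 0.658; -3.12, SE 0.82). Zc3hav1 was not called when either repressor replicate or PTGR replicate 2 was left out (adjusted p = 0.217, 0.0806 and 0.0788). Transcriptional coactivators, listed as a reference, were not called higher in repressor sorted cells, and 3 of 14 were higher in PTGR sorted cells. Ep300, the histone acetyltransferase p300, had 17.5 and 12 against 1.35 and 0.658, with 2.37 to 3.76 in the unsorted libraries (-3.20, SE 0.68). The PTGR sorted libraries were therefore above the unsorted libraries at Ep300. At the Mediator genes Med14 and Med13l at least 1 of them was not: Med14 had 2.46 and 3.42 against 2.22 to 3.34 in unsorted cells and no insertion in repressor sorted cells, and Med13l had 6.23 and 8.20 against 5.65 to 7.58 in unsorted cells and 1.35 and 0.658 in repressor sorted cells. The calls for Med14 and Med13l were lost without either repressor replicate and without PTGR replicate 2, and that for Med13l also without PTGR replicate 1 (adjusted p = 0.0786 to 0.464).

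Some genes were high in both sorted populations. In 26 of the 4175 tested genes (0.623%), all 4 sorted libraries had more insertions per 10000 than any unsorted library. Both repressor sorted libraries were above all unsorted libraries at 6.54% of tested genes, and both PTGR sorted libraries at 9.27%. Whether 26 departs from the overlap of unrelated sets was not tested. Of the 26 genes, 8 were still called higher in repressor sorted cells, and many of the 18 not called had few insertions in each sorted library. Morc1, a MORC-family ATPase that silences transposons in the germ line, had 211 and 176 insertions per 10000 in repressor sorted cells and 60.7 and 47.1 in PTGR sorted cells, against 6.29 to 8.04 in the unsorted libraries. Trim28 had 149 and 199 in repressor sorted cells and 30.7 and 20.8 in PTGR sorted cells, against 5.52 to 11.4 in the unsorted libraries. Both genes were thus far above the unsorted cells in each screen, and higher in repressor than in PTGR sorted cells (Morc1 2.42, SE 0.44, edgeR adjusted p = 1.02e-06; Trim28 3.28, SE 0.45, edgeR adjusted p = 2.55e-11). Rif1, a regulator of replication timing, had 38.2 and 52.0 in repressor sorted cells and 6.72 and 1.71 in PTGR sorted cells (3.92, SE 0.48). Spen, a corepressor of X inactivation, had 44.5 and 33.5 and 3.28 and 10.9, respectively (3.07, SE 0.46). The PTGR replicates differed at both genes: replicate 1 at Rif1 and replicate 2 at Spen lay above the unsorted libraries, and the other replicate lay within the unsorted range of 0.924 to 2.44 and 2.03 to 3.61, respectively. Zbtb45, a BTB zinc finger protein, had 21.1 and 7.89 in repressor sorted cells and 21.2 and 14.7 in PTGR sorted cells, against 3.45 to 6.47 in the unsorted libraries. The sorted groups overlapped there, and the difference did not pass the test (0.34, SE 0.44, edgeR adjusted p = 0.758). The study flagged Trim28 and Zbtb45 in both screens, and Morc1 in the PTGR screen, for enriched insertions on the reversed strand. It advised caution with such hits. Zbtb45 (chr7:13003898-13010034, minus strand) lies within the annotated span of Trim28 (chr7:12999114-13031035, plus strand). Whether these genes act separately was not tested.

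Morc1 and Trim28 also held many of the positions found in both screens. Of 446 positions that occurred in a PTGR sorted and in a repressor sorted library, 118 (26.5%) lay at Morc1 and 71 (15.9%) at Trim28. Leaving out all positions shared by the screens gave 194 and 60 calls again, of which 194 and 60 were the same genes. The exon to which Morc1 insertions were assigned also differed between the screens, although this was not tested: exon 21 took 84.2% and 84.3% in the repressor sorted libraries and 36.2% and 54.7% in the PTGR sorted libraries. The unsorted libraries already differed in the same direction, with 77.6% and 69.9% for the repressor and 39.9% and 52.9% for the PTGR screen. At Trim28, exon 2 took between 96.7% and 100% in all 8 libraries.

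**Figure D5:**
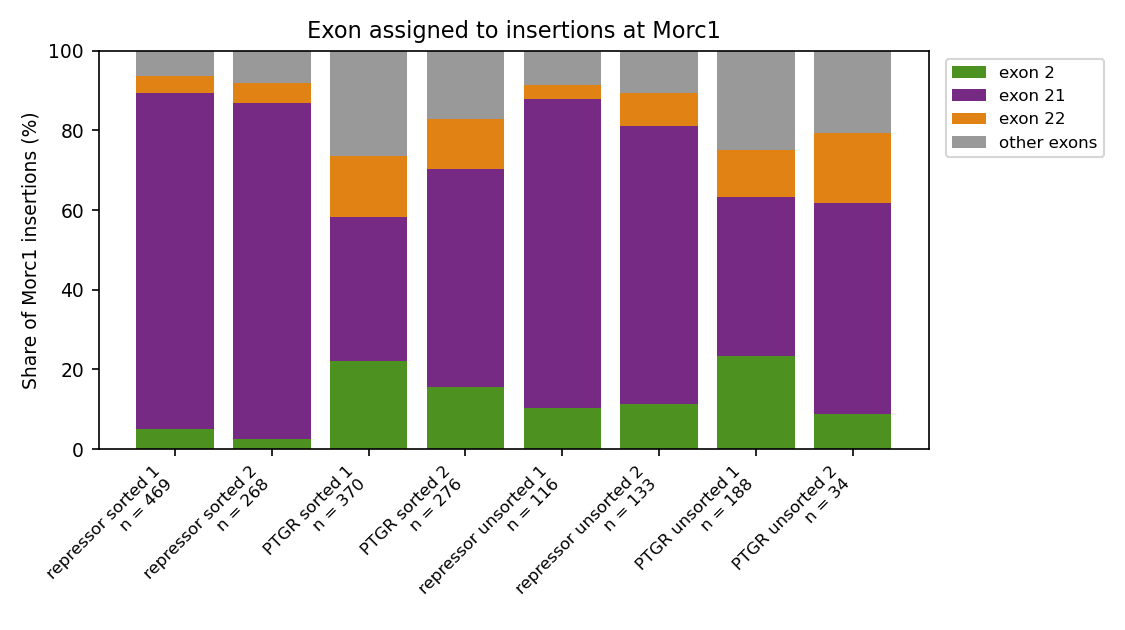
Share of Morc1 insertions (percent) by the exon to which they were assigned, in each of 8 libraries with the number of insertions under its name. Exon 21 (purple) takes 84.2% and 84.3% in the repressor sorted libraries and 36.2% and 54.7% in the PTGR sorted libraries, and the unsorted libraries differ the same way.

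Insertions at the called genes lay closer to their exon than insertions in general, and on the strand that allows splicing. The median distance at the 194 repressor genes was 10.7 and 10.6 kb in the repressor sorted libraries, against 16.5 and 17.2 kb over all genes in the same libraries and 18.0 and 17.6 kb at the same genes in the repressor unsorted libraries. At the 60 PTGR genes the median was 12.4 and 15.0 kb in the PTGR sorted libraries, against 29.9 and 31.5 kb over all genes and 26.5 and 30.05 kb at the same genes in the PTGR unsorted libraries. Over all genes the PTGR unsorted medians were 30.6 and 31.8 kb. The submitters also assigned every insertion to genes with the strand reversed, which counts insertions that cannot splice into the gene. At the 194 genes, 94.1% and 94.3% of repressor sorted insertions were on the splicing strand, against 51.2% and 51.0% of PTGR sorted insertions and 50.1% to 60.5% in unsorted libraries. At the 60 genes the splicing strand took 72.3% and 72.1% in PTGR sorted cells, 5.198% and 6.62% in repressor sorted cells, where only 42 and 30 insertions lay on it, and 50.3% to 56.0% in unsorted cells. Since same-strand counts chose these genes, the shares are descriptions.

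Called with the reversed strand, 119 genes were higher in repressor sorted cells (2.92% of 4073 tested) and 38 in PTGR sorted cells (0.933%; edgeR). Most of the insertions behind these calls belonged to called genes on the other strand: 95.3% and 95.6% of reversed insertions at the 119 genes in the repressor sorted libraries were assigned to one of the 194 genes when read on the splicing strand, and 87.8% and 86.6% of those at the 38 genes in the PTGR sorted libraries to one of the 60 genes. In all, 7 of the 119 and 1 of the 38 genes were called in the same direction with both assignments.

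The unsorted libraries of the screens were compared in the same way. Of 10147 genes tested in the unsorted libraries, 16 were higher in repressor cells (0.158%) and 5 in PTGR cells (0.0493%; edgeR), and 13 of the 16 and all 5 of the others, which were Tnrc6b, Smg9, Maco1, Parp14 and Cnot9, were called in the same direction in sorted cells. Few of these calls held under other settings: there were 1 and 0 with DESeq2 and with the replicate number as a block, 2 and 2 without repressor replicate 1, and 3 and 0 without repressor replicate 2. Zfp57 was 1.15 higher on the log2 scale in repressor than in PTGR unsorted cells (SE 0.19, edgeR adjusted p = 0.00339), and Tnrc6b was lower there (-2.89, SE 0.48, edgeR adjusted p = 0.00339). In sorted cells the differences at these genes were 6.87 and -5.29, and the change from unsorted to sorted cells differed between the screens at Zfp57 (5.79, SE 0.39, edgeR adjusted p = 7.63e-46) but did not pass that test at Tnrc6b (-2.44, SE 1.35, edgeR adjusted p = 0.362). With unsorted positions that also occurred in a sorted library of the same screen left out, 2 and 0 genes were called in the unsorted libraries (538 and 393 at an unadjusted p below 0.05). Testing the difference of the changes from unsorted to sorted cells, 147 genes had the larger change in repressor cells (3.52% of 4175) and 28 had the larger change in PTGR cells (0.671%; edgeR), and 144 of the 194 and 25 of the 60 genes were among them. Among the named PTGR-side genes, Tnrc6b, Maco1, Trim13, Parp14, Cnot9, Eif4enif1, Ago1, Ago2, Med14, Med13l and all 4 called decay genes, Smg1, Smg5, Smg9 and Upf2, did not pass this test. Cnot2, Trim71, Trim25, Mib2, Gm5485, Tnrc6c, Eif4e2, Ep300, Tet1, Pou5f1 and Zc3hav1 did. This test did not pair sorted with unsorted libraries. At the 60 genes, 673 of 3810 and 229 of 891 PTGR unsorted insertions lay at positions of a PTGR sorted library. Over all genes, 5.50% and 7.93% of PTGR unsorted insertions did. With such unsorted positions left out in both screens, 44 genes had the larger change in PTGR cells in place of 28.

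The median longest coding sequence was 1722 bases for the 194 genes and 1874 for the 60 genes, against 1503 over all tested genes. Called genes lay on most chromosomes, with chromosome 13 holding 21 of the 194 among 144 tested genes (14.6%), the largest share of any chromosome in that direction, and none of the 60. Of the genes singled out by the study for the repressor screen, Msantd3 had 26.0 and 9.21 per 10000 against 0.820 and 2.56 (4.04, SE 0.51), and Gm10324, with 7 and 7 insertions in repressor sorted cells and none in PTGR sorted cells, was at least 14.9-fold higher in repressor sorted cells (edgeR adjusted p = 7.57e-08), the floor of 3 insertions being 0.251 per 10000 in PTGR sorted cells.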

How the data were processed

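Insertion sites had been mapped by inverse PCR and sequencing. Per the study's methods and the labels, the authors trimmed reads with Trim Galore 0.6.0, mapped them to mm10 with Bowtie2, removed poorly mapped and duplicate reads with SAMtools 1.9 and assigned each position to the closest downstream non-first exon of a protein-coding transcript. The deposited tables list positions, which were counted here; the deposited summed counts per gene, pooled over replicates, served as a check only, and the authors' own odds ratios and p-values were not used. Unique positions within 200 kb were counted per gene and library and tested with edgeR 4.0.16 (quasi-likelihood, TMM, at least 10 insertions over the 4 sorted libraries, Benjamini-Hochberg adjustment). Levels are insertions per 10000 insertions of the library. Gene coordinates and coding lengths came from GENCODE vM21 and sequences from RefSeq's GRCm38.p6, the assembly also named mm10. The test was checked on simulated data. Named genes were the study's own, the 10 with the smallest p per direction, 5 genes that earlier results called in both screens and up to 4 per list. The members and 20 gene lists were chosen with earlier results of these data known. Of the listed symbols, 2 were matched by synonym and 9 were not matched. Counts of protein zinc finger motifs were not made, as no protein table was used here. Alternatives were library size scaling, DESeq2, Fisher's exact test, other filters, distances and counting rules, a replicate block and leaving out each library. Some genes that this rule selects are not reported here.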

Additional observations from a re-analysis of the deposited data

Results flagged for a closer look

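For the genes named above, the change from unsorted to sorted cells was compared between the screens with an interaction term (edgeR, log2, repressor change minus PTGR change, adjusted p below 0.05 in each case given here). Among the genes with the smallest p on the repressor side the difference was 6.37 for Ipo7, 6.83 for Zfp872, 6.19 for Zfp825, 6.53 for Gm35315, 6.65 for Zfp870, 5.81 for Sp3, 5.79 for Zfp57, 5.94 for Olfr130, 6.15 for Rcor2 and 6.90 for Sumo2. For heterochromatin genes it was 5.11 for Atf7ip, 6.67 for Cbx1, 5.83 for Cbx3 and 6.89 for Ehmt2. Corepressor genes gave 3.94 for Kdm1a, 3.19 for Gse1, 3.41 for Phf21a, 5.05 for Chd3, 4.55 for Chd4 and 3.75 for Ncor1. Polycomb genes gave 4.00 for Kdm2b, 5.11 for Cbx7, 4.89 for Pcgf6 and 4.87 for Phc1. Sequence-specific factors gave 6.22 for Sp1, 5.67 for Sp2, 4.61 for Klf8, 5.47 for Esrrb, 3.92 for Tfcp2l1 and 2.00 for Zbtb38. The genes high in both screens gave 2.49 for Morc1 and 2.37 for Trim28. Rif1 and Spen, where a single PTGR sorted replicate was above the unsorted libraries, gave 4.00 and 2.88. Tet2 stood at 2.08, Trim24 at 4.08, Trim8 at 2.46, Msantd3 at 4.04 and N4bp1 at 3.37.

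In the PTGR direction the difference was -8.40 for Cnot2, a fitted value that is no bound since repressor sorted cells had no insertion there, -4.94 for Trim71, -4.41 for Mib2, -3.82 for Trim25, -3.58 for Gm5485, -3.17 for Tnrc6c and -2.95 for Eif4e2. It was -2.81 for Ep300, -2.80 for Zc3hav1, -2.60 for Tet1 and -2.20 for Pou5f1.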

How the results depend on the processing

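No called gene changed direction under any of the 15 alternative fits, and 91 of the 194 repressor and 12 of the 60 PTGR calls were kept under all of them. The 194 stayed within 1.5 times under each alternative except the filter of at least 1 insertion (116); with each library left out they ranged from 131 to 186. The 60 became 222 with library size scaling, 259 with Fisher's exact test on summed replicates, 20 with DESeq2 (2671 adjusted p not given), 13 with at least 1 insertion, 19 with positions within 10 bp merged, 20 at adjusted p below 0.001 and at least 2-fold, 36 without positions shared by replicates (an alternative chosen after seeing the data, like the others on shared positions) and 19 to 46 with a library left out. Members of the 6 RNA lists higher in PTGR sorted cells (13) became 20 with library size scaling, 21 with Fisher's test, 8 with DESeq2, 5 with at least 1 insertion, 6 with merging, 8 at the stricter threshold and 8 to 13 with a library left out. Members of the 5 chromatin lists higher in PTGR sorted cells (2) became 4 with Fisher's test, 0 with DESeq2, at least 1 insertion, merging or the stricter threshold, 1 with every listed row, with the block or without positions shared by replicates, and 0 to 1 with a library left out; those higher in repressor sorted cells (30) became 19 with at least 1 insertion. The 51 numbered Zfp genes became 32 with at least 1 insertion, 30 with at least 30 insertions and 30 to 49 with a library left out.

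Unsorted calls (16 and 5) became 25 and 16 with library size scaling, 1 and 0 with DESeq2, 33 and 27 with at least 30 insertions, 2 and 0 without positions shared with sorted libraries, and ranged from 2 to 11 and 0 to 24 with a library left out. The difference of changes kept 147 repressor-side genes within 1.5 times, and its 28 PTGR-side genes became 213 with library size scaling, 9 with DESeq2, 44 without shared positions and 8 to 23 with a library left out. Reversed-strand calls (119 and 38) became 58 and 21 at 50 kb, 70 in the PTGR direction with library size scaling and 14 with DESeq2, and ranged from 79 to 117 and 15 to 31. The share of the 100 leading genes became 57.7% and 59.5% at 50 kb and 44.4% and 46.6% with merging in repressor sorted cells, and 11.9% and 11.1%, and 8.62% and 8.36%, in PTGR sorted cells. The causes were not tested.

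With the replicate number as a block there were 181 and 42 sorted calls, 1 and 0 unsorted calls, and 144 and 36 for the difference of changes. Same-numbered sorted libraries of the screens deviated together with a correlation of -0.0015 over 4175 genes, so the numbers were not treated as pairs in that comparison. Same-numbered sorted and unsorted libraries had a correlation of 0.245 in the PTGR screen and 0.0122 in the repressor screen, and 19.5% of PTGR sorted replicate 1 lay at positions of PTGR unsorted replicate 1 against 0.397% at those of replicate 2. The repressor sorted libraries held 37470 insertions against 119540, and 27 of the 60 genes had no insertion there, so that their folds are bounds.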
